A study of Mus musculus with 48 samples.

Results

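The genes described here are 10 parts of the TGF-beta pathway: the ligands Tgfb1, Tgfb2 and Tgfb3, the ligand anchor Nrros, the receptors Tgfbr1 and Tgfbr2, the signal carriers Smad2 and Smad3, the inhibitory Smad7 and the co-repressor Ski. They were taken by symbol from a table of 35870 genes, and all 10 were found. They were followed over 48 RNA libraries of C57BL/6 wild type male mice, from sorted brain microglia (the resident macrophages of the brain, gated as Cd11b+ and Cd45+) and from whole spinal cord, with 8 libraries in each of 6 groups. Young mice were 3 months old and received vehicle, and old mice were 23 months old and received vehicle. Old repopulated mice, also 23 months old, had 5 days of an unnamed Csf1r inhibitor, which removes microglia because they need this receptor to survive, and then 7 days of recovery. The gate for Cd11b and Cd45 also takes other myeloid cells. The labels leave out whether each library is a separate animal and whether 1 mouse gave both tissues, so the p-values here reflect the spread among the sequenced libraries, which may be technical.

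TGF-beta ligands are secreted in a latent form, held by their own propeptide, and must be released before they can act. On microglia the transmembrane protein Nrros anchors latent TGF-beta1, and integrins containing the alphaV subunit release it. The active ligand joins the type II receptor Tgfbr2 to the type I receptor Tgfbr1, which phosphorylates Smad2 and Smad3. These enter the nucleus with Smad4, while Smad7 blocks the receptor and Ski represses Smad target genes. In the adult brain this signal is known for keeping microglia in their homeostatic state.

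Total counts per library ran from 15909868 to 34496308, and all 10 genes passed the low-count filter of the edgeR fits reported here. Tgfb3 in microglia was dropped by a stricter filter, and by the filter when only repopulated and young libraries were fitted. It was thus kept through the old libraries, where it was highest. Levels are given as CPM (the usual per-total scaling of counts, with each library's total adjusted within its tissue by TMM, a trimmed mean of ratios) and as TPM, which also divides by gene length, where genes are compared with each other. Differences are log2 fold changes of the edgeR fit with their standard error (SE), and a gene is called when its adjusted p is under 0.05. The repopulated cord replicate 6 stood apart from its group in several of these genes. The summed microglial markers had medians of 58000, 44400 and 46100 CPM in young, old and repopulated sorted microglia, and no marker of that list was near 0. Markers of other myeloid cells differed between the sorted groups. The neutrophil sum had medians of 484, 4490 and 1300 CPM in young, old and repopulated libraries, the monocyte sum 122, 665 and 345 CPM, and the border-associated macrophage sum 249, 530 and 105 CPM. No marker of these 3 lists had a mean under 0.1 CPM in a sorted group, and the part of these cells in the results was not tested.

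The 250 bases before the start site were read for the members that RefSeq's promoter table (GRCm38.p6) holds, which are 7 of the 10 with 8 start sites. Tgfb3, Smad2 and Smad7 have no entry there, and Smad2 was also lower in old microglia. Of 6 motifs searched on both strands, the GC box GGGCGG was the one shared by most members. It is shown for 2 genes that were lower in old microglia, Tgfb1 and Smad3, and for 2 that were not called there, Tgfbr2 and Nrros. Capitals mark GC boxes on either strand, and each sequence runs 5′ to 3′ towards its gene.
Tgfb1, chr7:25686752-25687001, plus strand: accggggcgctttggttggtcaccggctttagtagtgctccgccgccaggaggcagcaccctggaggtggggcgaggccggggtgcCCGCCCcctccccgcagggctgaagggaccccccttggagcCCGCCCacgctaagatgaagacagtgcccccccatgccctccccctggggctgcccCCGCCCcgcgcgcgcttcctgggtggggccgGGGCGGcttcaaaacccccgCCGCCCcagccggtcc
Smad3, chr9:63757995-63758244, minus strand: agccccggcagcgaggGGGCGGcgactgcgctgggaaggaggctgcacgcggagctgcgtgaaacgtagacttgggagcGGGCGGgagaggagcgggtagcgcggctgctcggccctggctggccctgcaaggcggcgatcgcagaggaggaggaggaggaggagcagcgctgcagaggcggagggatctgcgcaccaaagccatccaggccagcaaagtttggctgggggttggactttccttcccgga
Tgfbr2, chr9:116175364-116175613, minus strand: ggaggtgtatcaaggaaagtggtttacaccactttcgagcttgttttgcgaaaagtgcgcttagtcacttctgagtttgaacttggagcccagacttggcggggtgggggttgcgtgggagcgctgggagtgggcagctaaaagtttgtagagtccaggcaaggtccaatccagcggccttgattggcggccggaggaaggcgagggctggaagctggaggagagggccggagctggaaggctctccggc
Nrros, chr16:32165595-32165844, minus strand: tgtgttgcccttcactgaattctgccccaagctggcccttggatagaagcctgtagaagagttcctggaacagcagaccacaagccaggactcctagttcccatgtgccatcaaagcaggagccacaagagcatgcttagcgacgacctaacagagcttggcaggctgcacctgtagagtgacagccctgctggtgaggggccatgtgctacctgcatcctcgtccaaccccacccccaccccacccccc
Tgfb1 had 5 GC boxes in this window and Smad3 had 2, and the windows of Tgfbr2 and Nrros held none. Ski, with 5, and Tgfbr1, with 2 at the first of its start sites, also carried them, and Tgfb2 did not. The motif was in 32.7% of the 32851 promoter windows of the table, and GC content alone differed, at 75.2% for Tgfb1, 69.2% for Smad3 and 58.4% for both Tgfbr2 and Nrros. Whether GC boxes go with the age differences was not tested. The Smad box CAGACA, in 17.1% of all windows, was found in those of Tgfb2 and, at the second start site, Tgfbr1. The ETS core GGAAGT, in 19.7% of windows, was found at the second start site of Tgfbr1. The longer ETS motif GAGGAAGT, which contains that core, and the Smad palindrome GTCTAGAC and the AP-1 motif TGANTCA were in none of the 8 windows.

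Young microglia carried Tgfb1 and both receptors at high levels and the other ligands at low levels. In TPM, Tgfb1 had a median of 784, Tgfbr1 of 779 and Tgfbr2 of 564 in young microglia, and the ranges of neighbours in this order overlapped. Below them, each apart from the next, came Ski at 298, Nrros at 178, Smad3 at 110, Smad7 at 38.3 and Smad2 at 16.8 TPM. Tgfb2 had a median of 1.25 and Tgfb3 of 0.268 TPM. The same 10 genes lay in another order in young cord, where Ski led with a median of 54.0 TPM, followed by Tgfbr2 at 38.3 and then Tgfb3 at 16.6. The cord medians of Tgfbr1 (14.3), Smad2 (13.9), Smad3 (12.7), Smad7 (11.6), Tgfb2 (8.98) and Tgfb1 (7.75 TPM) followed closely, and the ranges of neighbours among them overlapped. Nrros was lowest there, at 3.38 TPM, with a range apart from that of Tgfb1.

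All 10 genes differed between young microglia and young cord, where 84.3% of all genes tested were called, 35.4% higher and 48.9% lower in microglia. The log2 difference of CPM was 7.75 (SE 0.13, adjusted p = 3.1e-42) for Tgfb1, 6.90 (SE 0.12) for Nrros and 6.80 (SE 0.14) for Tgfbr1. It was 4.96 for Tgfbr2, 4.09 for Smad3, 3.51 for Ski and 2.89 for Smad7. Tgfb3 was 29.5-fold lower in microglia (log2 -4.88, SE 0.52, adjusted p = 1.1e-11), and Tgfb2 was 3.54-fold lower (log2 -1.82, SE 0.40, adjusted p = 7.1e-05). The difference of Smad2, 1.29 here, was 0.48 with scaling to total counts and 0.21 on log2(TPM + 1), where it was not called (adjusted p = 0.092). The median over all genes was -0.48 here and -1.29 with total counts. Tissue, dissociation and RNA kit differ together between these groups, so their parts cannot be told apart.

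In old microglia 5 of the 10 genes were lower than in young and none was higher, by edgeR's quasi-likelihood test: Tgfb1, Tgfbr1, Smad2, Smad3 and Ski. Of all genes tested, 21.7% were called and 10.7% were called lower. The median log2 fold change of the 10 was -0.20, beside -0.01 over all genes. No member had groups that did not overlap, which 7.16% of all genes did. The same 5 genes were called without old replicates 2 and 7, whose removal was chosen after seeing the data.

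**Figure D1:**
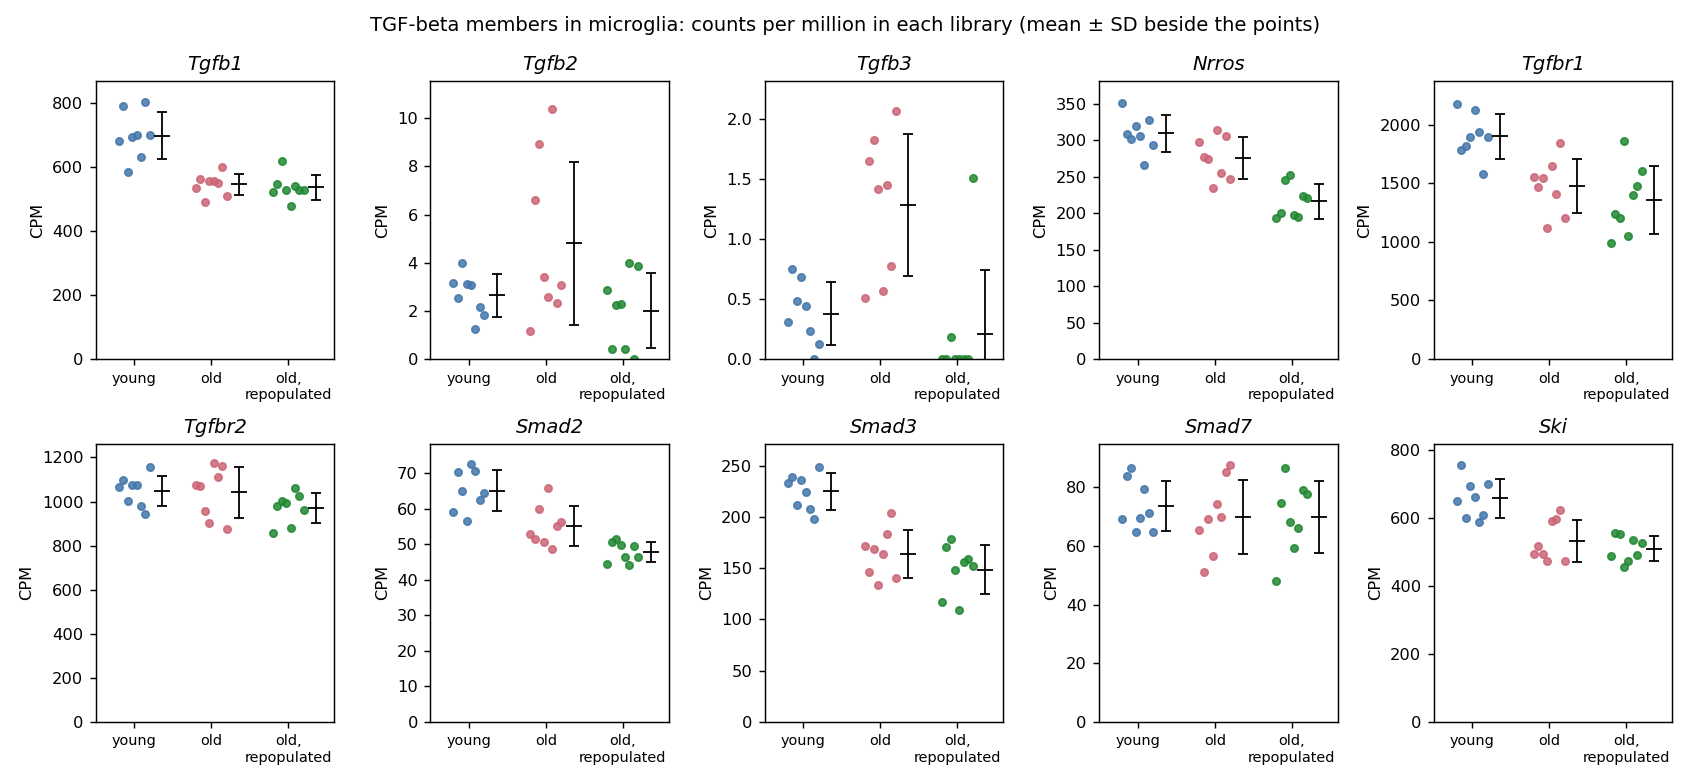
CPM of each gene (vertical axes, linear from 0) in the 8 young, 8 old and 8 old repopulated libraries of sorted microglia (points), with the mean ± SD as a bar beside them. Smad3, Tgfb1 and Ski sit lower in both old groups, Nrros is lower in the repopulated group than in the old one, and Tgfb3 is at 0 in 6 repopulated libraries.

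Among the ligands, Tgfb1 (chr7:25687002-25705077, GRCm38) is the form that microglia express. It ranged from 586 to 804 CPM with a median of 698 in young microglia, and from 492 to 600 CPM with a median of 554 in old ones. It fell 1.28-fold (log2 -0.36, SE 0.06, adjusted p = 7.9e-05). Of the 8 old libraries, 7 lay below the lowest young one. In repopulated microglia Tgfb1 ranged from 478 to 619 CPM around a median of 530. These values overlapped those of old microglia (log2 -0.02, SE 0.06, adjusted p = 0.85), and 7 of the 8 lay below all young ones (log2 -0.38, SE 0.06, adjusted p = 1.7e-05).

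Tgfb2 (chr1:186622792-186705989) and Tgfb3 (chr12:86056745-86079041) encode the forms made mainly by other cells, and their few reads in sorted microglia varied widely. Tgfb2 went from 1.24 to 3.99 CPM in young (median 2.82), from 1.16 to 10.4 CPM in old (median 3.25) and from 0 to 3.98 CPM in repopulated libraries (median 2.26). The edgeR fit called it in no comparison of microglia. In repopulated against old microglia Tgfb2 was called lower on log2(TPM + 1) (-0.77, adjusted p = 0.018) and on log2(TPM + 0.1) (-1.59, adjusted p = 0.02). Tgfb3 had a median of 0.372 CPM in young microglia, with 1 library at 0, and of 1.43 CPM in old microglia, between 0.504 and 2.06. Of the 8 old libraries, 6 lay above all young ones, and the change was not called (log2 1.75, SE 1.03, adjusted p = 0.26). It was called on log2(TPM + 1), with a difference of 0.54 and an adjusted p of 0.007, on log2(TPM + 0.1) (1.46, adjusted p = 0.026) and by limma-voom (2.14, adjusted p = 0.0044).

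In repopulated microglia Tgfb3 had no read in 6 of 8 libraries, which allows up to 0.107 to 0.136 CPM (3 counts per library). It stood at 0.187 CPM in replicate 3 and at 1.504 CPM in replicate 8. The difference from old microglia was not called (log2 -2.57, SE 1.07, adjusted p = 0.11), but without repopulated replicate 8 it was (log2 -5.32, adjusted p = 0.001), as it was by limma-voom (-4.69, adjusted p = 0.0013) and on log2(TPM + 1) (-0.75, adjusted p = 0.00037). Leaving out the same library also made the difference from young microglia a call (log2 -3.57, adjusted p = 0.0085). Because Tgfb3 was kept by the filter through the old libraries, where it was highest, its differences from old microglia are description only. This holds against young and repopulated libraries alike. The border-associated macrophage sum had the same order of groups as Tgfb3, as did the sums of mural cell and fibroblast markers (medians of 36.7, 63.8 and 22 CPM in young, old and repopulated libraries), endothelial markers (138, 223 and 115 CPM) and oligodendrocyte markers (298, 462 and 277 CPM). The part of these cells in the Tgfb3 reads was not tested. Exons of 2 predicted genes on the other strand cover 4.8% and 7.6% of the exon bases of Tgfb3, and the library kit does not keep the strand.

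Nrros (chr16:32142785-32165594), the anchor of latent TGF-beta1, was the 1 member called between repopulated and old microglia, where 16.2% of all genes were called and 7.2% were called lower. It ranged from 267 to 352 CPM in young (median 307), from 235 to 315 CPM in old (median 276) and from 194 to 253 CPM in repopulated microglia (median 211). The fall from old to repopulated was 1.28-fold (log2 -0.35, SE 0.07, adjusted p = 0.00075), and 6 of 8 repopulated libraries lay below all old ones. No member's groups were apart in this comparison, as 3.06% of all genes were. All repopulated libraries lay below all young ones (log2 -0.52, SE 0.07, adjusted p = 1.1e-06). The difference between old and young was not called (log2 -0.17, SE 0.07, adjusted p = 0.11), except by limma-voom with quality weights (-0.20, adjusted p = 0.024).

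Of the receptors, Tgfbr1 fell with age and Tgfbr2 was not called. Tgfbr1 (chr4:47353222-47414931), the type I receptor with the kinase activity towards Smads, ranged from 1570 to 2180 CPM in young (median 1890), from 1120 to 1850 CPM in old (median 1510) and from 994 to 1860 CPM in repopulated microglia (median 1320). It was 1.29-fold lower in old than in young (log2 -0.36, SE 0.11, adjusted p = 0.012) and 1.40-fold lower in repopulated than in young (log2 -0.49, SE 0.11, adjusted p = 0.00052). In each of these comparisons 6 of 8 libraries lay below all young ones. Tgfbr2 (chr9:116084293-116175360), the ligand-binding type II receptor, had medians of 1070, 1070 and 987 CPM in young, old and repopulated microglia. Its groups overlapped throughout, with log2 differences of -0.01 (SE 0.07) for old and -0.11 (SE 0.07, adjusted p = 0.21) for repopulated against young. The second difference was called with total counts (-0.24, adjusted p = 0.005) and on log2(TPM + 1) (-0.43, adjusted p = 0.0002).

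The ratio of Tgfbr1 to Tgfbr2 within each library, which no scaling between libraries can move, showed the same split. It is 1 of 7 such ratios computed, of which 4 had a pair of groups apart in a tissue and are given here. Those of Smad3 to Smad2, Ski to Smad3 and Nrros to Tgfb1 overlapped between all groups within each tissue. As a log2 ratio of TPM it ran from 0.34 to 0.67 in young microglia (median 0.48) and from -0.05 to 0.33 in old microglia (median 0.12). Every old library lay below every young one. In repopulated microglia the ratio ran from -0.15 to 0.54 (median 0.01) and overlapped both groups. In TPM, then, the type I receptor was 1.39 times the type II receptor in the middle of the young group and 1.08 times in that of the old group. In young cord that figure was 0.373, the reverse order of the receptors.

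Of the Smads, Smad3 (chr9:63646767-63757994) had the largest fall among the called members in both comparisons with young microglia. It ranged from 198 to 249 CPM in young (median 229), from 133 to 203 CPM in old (median 167) and from 109 to 178 CPM in repopulated microglia (median 154). It was 1.37-fold lower in old (log2 -0.46, SE 0.09, adjusted p = 0.00038), and 7 of 8 old libraries lay below all young ones. It was 1.51-fold lower in repopulated than in young (log2 -0.60, SE 0.09, adjusted p = 5.2e-06), with no overlap of the groups. Smad2 (chr18:76241580-76310963), the other receptor-activated Smad of this branch, had medians of 64.8, 54.1 and 48 CPM. Its age difference (log2 -0.24, SE 0.07, adjusted p = 0.015) lost its call with DESeq2's size factors (-0.20, adjusted p = 0.053), with total counts (-0.20, adjusted p = 0.06), without young replicate 5 (adjusted p = 0.054) and without old replicate 6 (adjusted p = 0.051). Its difference between repopulated and young was 1.36-fold (log2 -0.44, SE 0.07, adjusted p = 1.1e-05), again with no overlap. Between repopulated and old microglia Smad2 was just short of a call (log2 -0.20, SE 0.07, adjusted p = 0.052). It was called lower there with DESeq2's size factors (adjusted p = 0.042), a stricter filter (0.027) and the DESeq2 Wald test (0.029). The same held with total counts (adjusted p = 0.0007) and on log2(TPM + 1) (0.0016).

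Of the inhibitory members, Ski fell with age and Smad7 was not called. Smad7 (chr18:75367529-75395935), which the pathway itself induces and which marks the receptors for degradation, had medians of 70.4, 69.6 and 71.5 CPM in young, old and repopulated microglia. None of its differences was called, and they were -0.07 (SE 0.11) for old against young and 0.00 (SE 0.11) for repopulated against old. On log2(TPM + 1) it was called lower in repopulated than in young microglia (-0.40, adjusted p = 0.019). Ski (chr4:155154075-155222592) ranged from 586 to 756 CPM in young (median 655), from 472 to 622 CPM in old (median 504) and from 456 to 556 CPM in repopulated microglia (median 508). It was 1.23-fold lower in old (log2 -0.30, SE 0.07, adjusted p = 0.0014) and 1.29-fold lower in repopulated than in young (log2 -0.37, SE 0.07, adjusted p = 9.3e-05), and no repopulated library reached the young range. The log2 TPM ratio of Smad7 to Smad3 went from a median of -1.35 in young to -0.83 in repopulated microglia, between -1.69 and -1.03 and between -1.03 and -0.63. Unrounded, every repopulated library lay above every young one, and old microglia, with a median of -1.02, overlapped both.

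Against young microglia, 6 of the 10 genes were lower after repopulation (Tgfb1, Nrros, Tgfbr1, Smad2, Smad3 and Ski), where 32.7% of all genes were called and 16.5% were called lower. For 4 of these the groups did not overlap, as for 13.1% of all genes. The median of the 10 was -0.42, beside -0.06 over all genes. The young, old and repopulated comparisons share libraries, so their values are given side by side and not as separate evidence. Between repopulated and old microglia the number of called members depended on the scaling, with 1 under TMM, 6 under total counts and 9 on log2(TPM + 1). The median over all genes moved with it, from -0.04 to -0.21 under both of the latter, and the share of higher genes among all calls went from 55.7% to 17.6% and 10.4%.

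**Figure D2:**
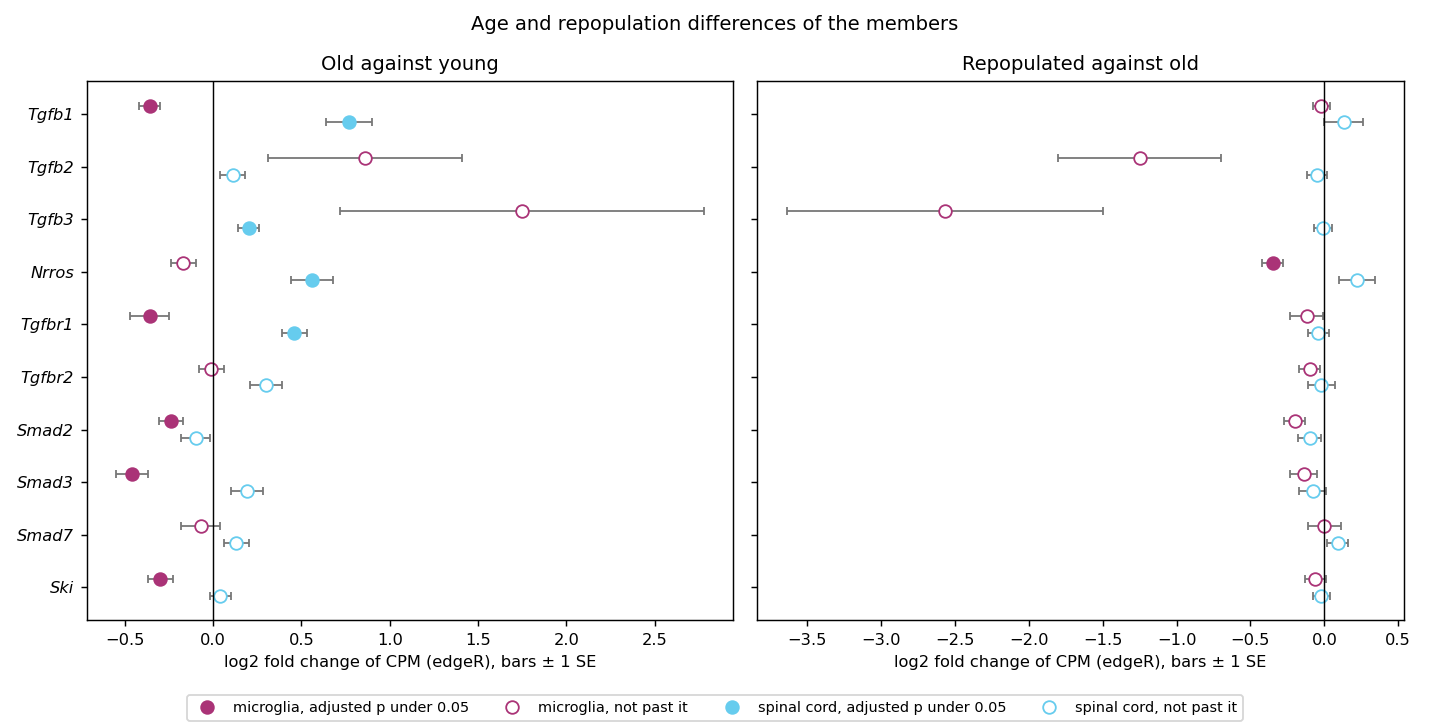
Log2 fold change of CPM (horizontal axes, bars ± 1 SE) with age (left) and from old to repopulated (right), in microglia and in cord; filled points have an adjusted p under 0.05. Tgfb1, Tgfbr1 and Smad3 lie left of 0 with age in microglia, Tgfb1, Nrros and Tgfbr1 lie right of 0 in cord, and after repopulation Nrros in microglia is the 1 filled point.

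In old spinal cord 4 of the 10 genes were higher than in young and none was lower: Tgfb1, Tgfb3, Nrros and Tgfbr1. Over all genes 6.15% were called and 4.88% were called higher. The median of the 10 was 0.20, beside -0.01 over all genes. For Tgfb1 and Tgfbr1 the groups did not overlap, as for 3.06% of all genes. Whole cord mixes neurons, glia, vessels and blood cells, and there more cells of a type and more RNA per cell cannot be told apart.

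Tgfb1 ranged from 5.31 to 6.48 CPM in young cord (median 5.99) and from 6.71 to 12.5 CPM in old cord (median 10.1). It rose 1.70-fold (log2 0.77, SE 0.13, adjusted p = 0.00033). In repopulated cord it ranged from 8.36 to 17.8 CPM (median 10.5), and the highest value belonged to replicate 6. All repopulated libraries lay above all young ones (log2 0.90, SE 0.13, adjusted p = 2.9e-05, and 0.78 without replicate 6). Tgfb2 stayed in overlapping ranges, with medians of 17.1, 18.4 and 17.8 CPM and no call.

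Tgfb3, at medians of 19.9, 23.6 and 23.6 CPM in young, old and repopulated cord, was near the threshold in both comparisons with young. It was 1.15-fold higher in old cord (log2 0.20, SE 0.06, adjusted p = 0.048) and 1.14-fold higher in repopulated cord (log2 0.19, SE 0.06, adjusted p = 0.048). The first call was lost in 13 of 16 fits that left out 1 library and the second in 12 of 16. Both were also lost on log2(TPM + 1) (adjusted p = 0.42 and 0.60). The log2 ratio of Tgfb3 to Tgfb1 in TPM lay between 0.96 and 1.49 in young cord (median 1.11) and between -0.24 and 0.85 in repopulated cord (median 0.50), with no overlap. The ratio of Tgfb2 to Tgfb1 went from a median of 0.19 to -0.54, again with every repopulated library below every young one.

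**Figure D3:**
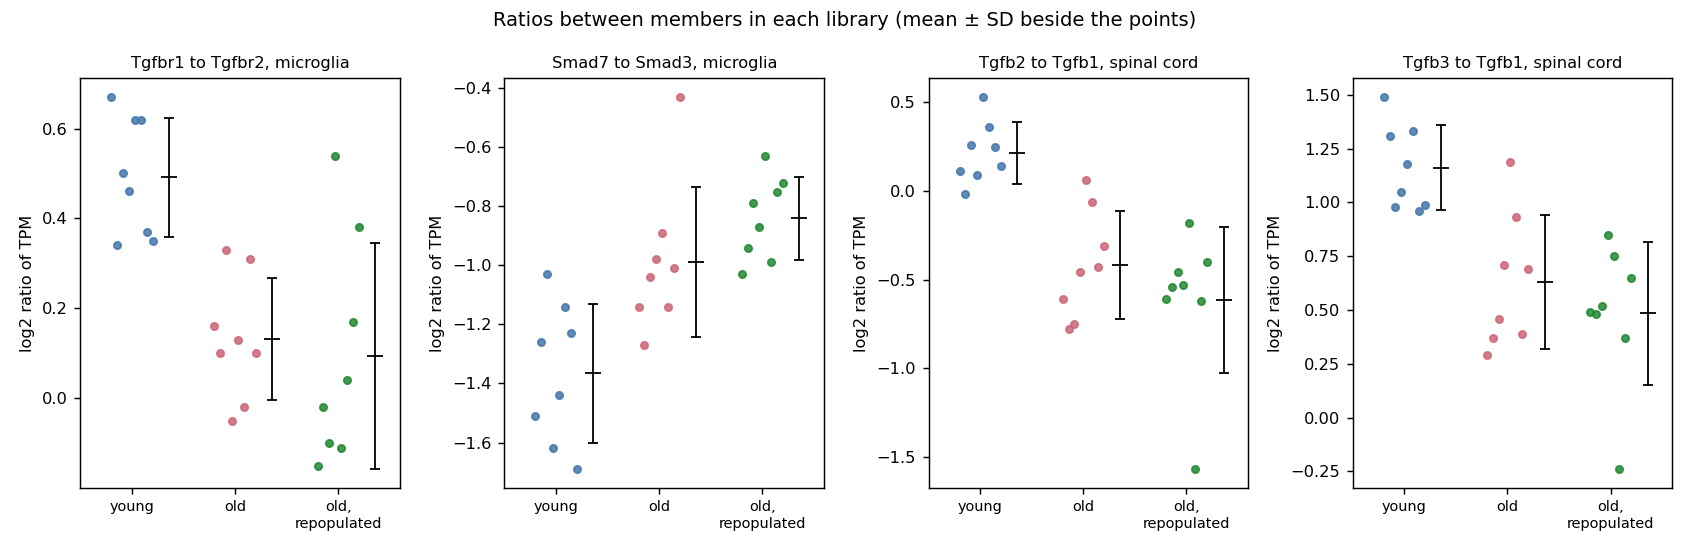
Log2 ratios of TPM (vertical axes) between members within each library, by group, with the mean ± SD beside the points: Tgfbr1 to Tgfbr2 and Smad7 to Smad3 in microglia, Tgfb2 to Tgfb1 and Tgfb3 to Tgfb1 in cord. Old microglia lie below all young ones in the first panel, and the repopulated groups are apart from the young ones in the other 3.

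Nrros ranged from 3.40 to 5.78 CPM in young (median 5.01), from 5.40 to 8.98 CPM in old (median 6.84) and from 6.38 to 9.12 CPM in repopulated cord (median 8.44). It was 1.47-fold higher in old (log2 0.56, SE 0.12, adjusted p = 0.0033), where 6 of 8 libraries lay above all young ones. It was 1.71-fold higher in repopulated than in young cord (log2 0.77, SE 0.12, adjusted p = 5.1e-05), with no overlap. Tgfbr1 ranged from 29.2 to 32.6 CPM in young (median 31.2), from 37.8 to 49.3 CPM in old (median 42.7) and from 31.1 to 49.1 CPM in repopulated cord (median 42.0). It rose 1.37-fold with age (log2 0.46, SE 0.07, adjusted p = 4.6e-05), and every old library was above every young one. On log2(TPM + 1) that difference was 0.45 and was not called (adjusted p = 0.071). In TPM every old library (17.4 to 23.6) still lay above every young one (13.3 to 15.6). The spread in that fit came from all cord libraries, among them repopulated replicate 6 at 7.56 TPM, and its part in the lost call was not tested.

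In repopulated cord Tgfbr1 was 1.34-fold above young (log2 0.42, SE 0.07, adjusted p = 0.0001), and 7 of 8 libraries, without replicate 6, lay above all young ones. This call was also lost on log2(TPM + 1) (0.29, adjusted p = 0.28). Tgfbr2 had medians of 64.5, 76.3 and 76.0 CPM and was not called in old (log2 0.30, SE 0.09, adjusted p = 0.058) or in repopulated cord (log2 0.28, SE 0.09, adjusted p = 0.062) against young. Leaving out repopulated replicate 6 or replicate 4 made the second difference a call (adjusted p = 0.013 and 0.046), and leaving out young replicate 1 or 7 or old replicate 5 did so for the first (adjusted p = 0.047, 0.048 and 0.024). Both were called by limma-voom (adjusted p = 0.0094 in old and 0.0079 in repopulated cord).

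The Smads and Ski moved little in cord. Smad2 had medians of 47.1, 45.1 and 43.0 CPM, Smad3 of 23.8, 27.9 and 26.7 CPM, and Ski of 105, 108 and 110 CPM, with no call. Without repopulated replicate 6, Smad3 was called in repopulated against young cord (log2 0.20, adjusted p = 0.022), and limma-voom called it in old against young (0.19, adjusted p = 0.022). Smad7, with medians of 18.1, 19.8 and 21.0 CPM, was 1.17-fold higher in repopulated than in young cord (log2 0.22, SE 0.07, adjusted p = 0.042), a call lost in 11 of 16 fits without 1 library and on log2(TPM + 1) (0.12, adjusted p = 0.53). In all, 5 of the 10 were higher in repopulated than in young cord (Tgfb1, Nrros, Tgfbr1, Tgfb3 and Smad7), where 10.1% of all genes were called and 7.28% were called higher. For Tgfb1 and Nrros the groups did not overlap, as for 3.61% of all genes. Leaving out single libraries gave 3 to 7 called members, with 3 in 9 of 16 fits (without young replicate 4, 6, 7 or 8, or repopulated replicate 1, 2, 3, 5 or 8) and 7 without repopulated replicate 6.

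Between repopulated and old cord edgeR called 0 of the 10 genes, and 0.148% of all genes. None had an unadjusted p under 0.05 either, and DESeq2 and limma-voom also called 0. The largest difference was that of Nrros (log2 0.22, SE 0.12, adjusted p = 0.68), followed by Tgfb1 (0.13, SE 0.13). The groups of all 10 genes overlapped, and those of 0.0493% of all genes did not.

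**Figure D4:**
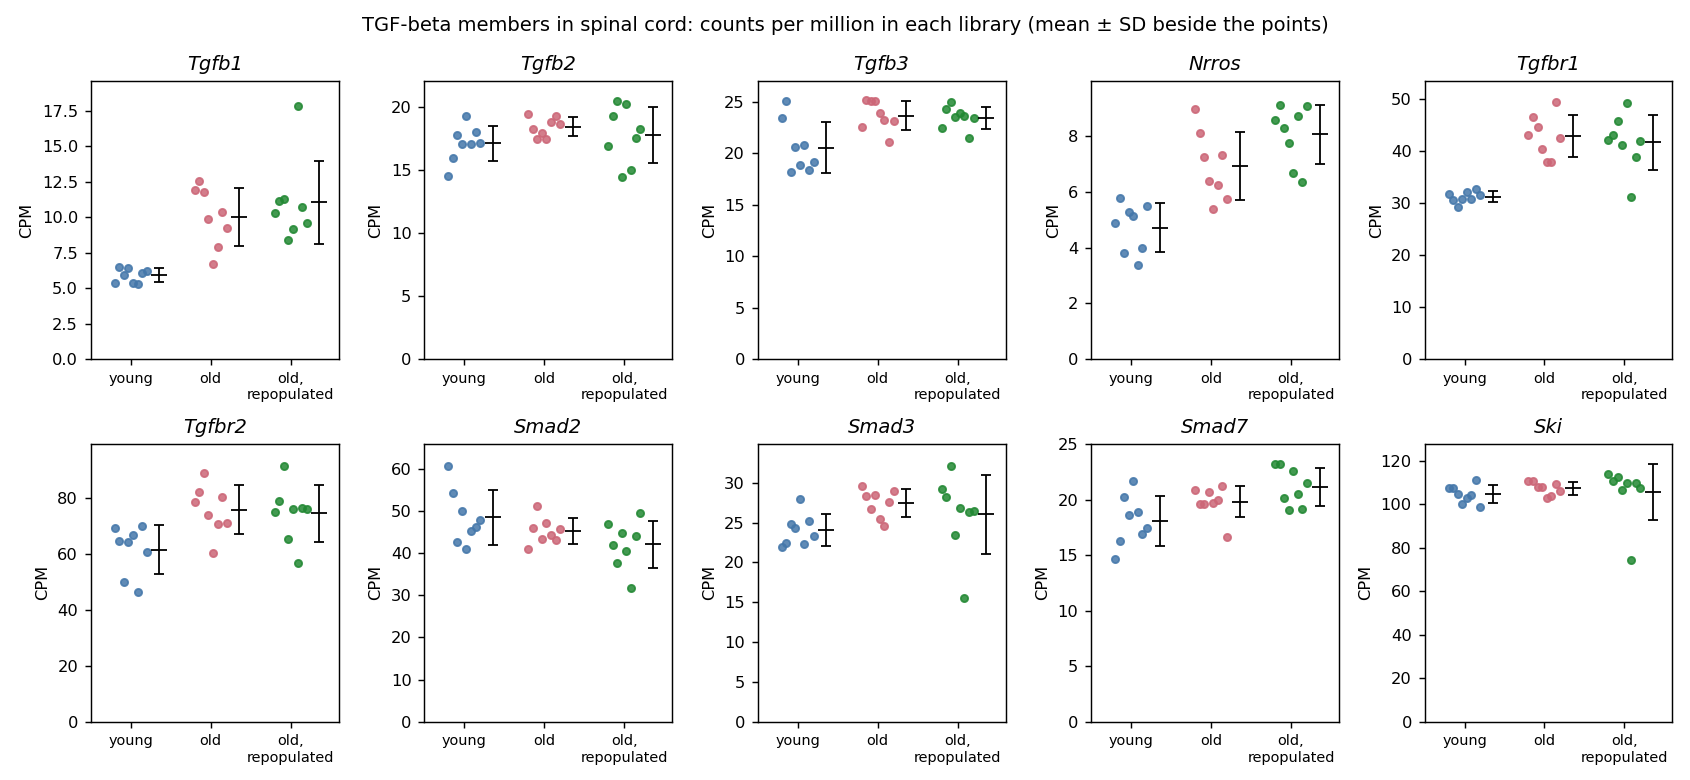
CPM of each gene (vertical axes, linear from 0) in the 8 young, 8 old and 8 old repopulated libraries of whole spinal cord (points), with the mean ± SD beside them. Tgfb1, Nrros and Tgfbr1 are higher in both old groups, and 1 repopulated library, replicate 6, has the highest Tgfb1 and the lowest Tgfbr1, Tgfbr2, Smad2, Smad3 and Ski of its group.

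The summed microglial markers also differed in cord, from 198 to 272 CPM in young (median 215), from 336 to 427 in old (median 374) and from 373 to 702 in repopulated libraries. Per 1000 CPM of these markers, a scale added after seeing the data, Tgfb1 had medians of 27.2, 26.1 and 24.4 and Nrros of 21.1, 18.2 and 18.4, and for both genes the ranges of the 3 groups overlapped. Tgfbr1 went the other way on this scale, with medians of 141, 114 and 104, and its old range (101 to 120) overlapped the young one (118 to 160) at its upper end. Ski, at 487, 288 and 257, was lower in every library of both old groups than in any young one, as were Tgfb2, Smad2, Smad3 and Smad7. In all, 5 of the 10 genes were apart from young in old and 8 in repopulated cord, each of them lower. The marker sum that divides them was higher in both old groups, so a gene with a steady CPM comes out lower on this scale. The share over all genes was not computed, so these counts say nothing particular about the members. The marker sum was itself lower in sorted old microglia (44400 CPM) than in young ones (58000 CPM). Neutrophil markers in cord had medians of 70.0, 134 and 76.3 CPM and reached 351 CPM in repopulated replicate 6.

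**Figure D5:**
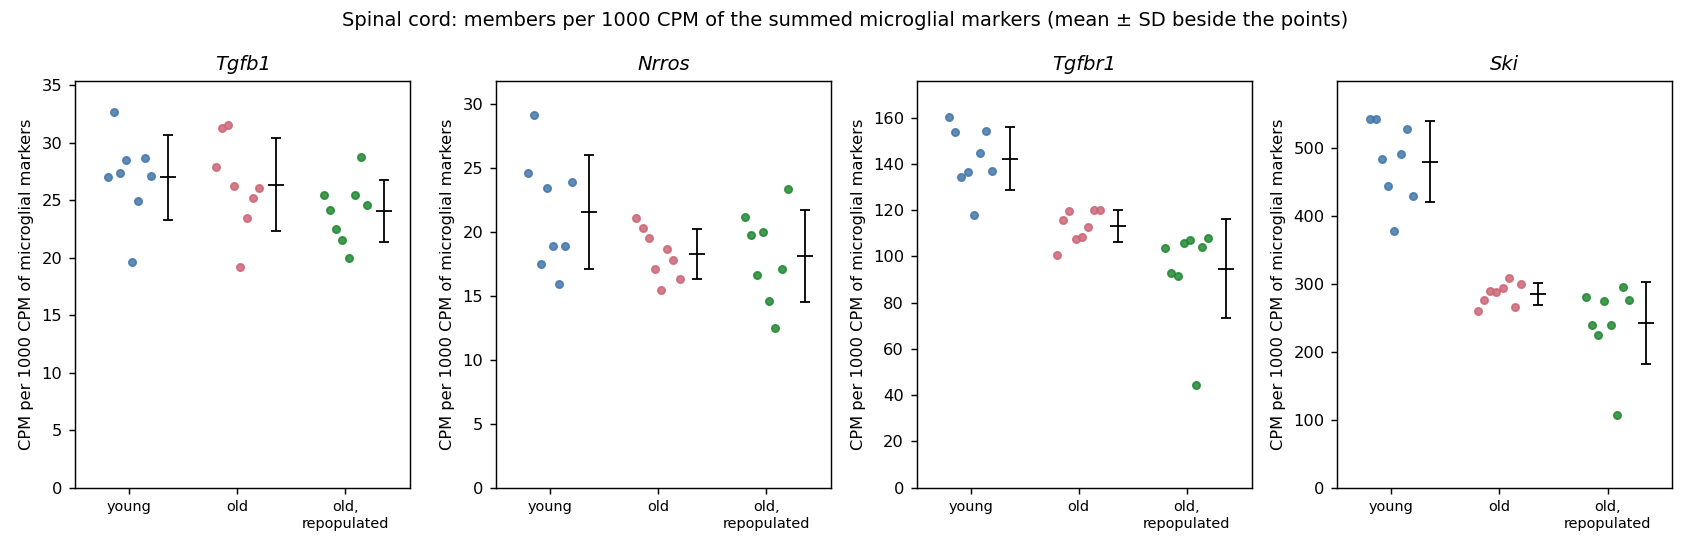
Tgfb1, Nrros, Tgfbr1 and Ski in whole spinal cord, as CPM per 1000 CPM of the summed microglial markers (vertical axes, linear from 0), in each library by group, with the mean ± SD beside the points. Tgfb1 and Nrros overlap between groups on this scale, with medians of 24.4 to 27.2 and of 18.2 to 21.1, and Ski is lower in the old groups.

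The age change itself differed between microglia and cord for 7 of the 10 genes, in a fit over all 48 libraries where 20.5% of all genes were called and 15% were called lower in microglia. The difference of the age changes was -1.29 for Tgfb1 (SE 0.14, adjusted p = 1.7e-09), -0.99 for Tgfbr1 (SE 0.15, adjusted p = 2e-06), -0.89 for Nrros (SE 0.14, adjusted p = 4.9e-06) and -0.81 for Smad3 (SE 0.14, adjusted p = 3.2e-05). For Ski it was -0.50 (SE 0.09, adjusted p = 6.5e-05). The median over all genes was -0.15 in this fit and -0.01 with DESeq2's size factors, where the share of higher genes among the calls was 49.3% in place of 26.6%. Smaller differences depended on this: that of Tgfbr2 (-0.48, adjusted p = 0.0026) became -0.32 (adjusted p = 0.07), and that of Smad2 (-0.30, adjusted p = 0.045) became -0.15 (adjusted p = 0.41). The 5 genes first named were still called with DESeq2's size factors, but Ski was not on log2(TPM + 1) (-0.44, adjusted p = 0.11). The change from old to repopulated differed between the tissues for Nrros (-0.59, SE 0.14, adjusted p = 0.005) and for Tgfb3 (-2.61, SE 0.70, adjusted p = 0.014), where 11% of all genes were called and 7.54% were called lower in microglia. The DESeq2 Wald test gave -0.19 for Tgfb3 (adjusted p = 0.97). The counts of Tgfb3 averaged 33.5 in old and 5.25 in repopulated microglia, and its change in cord was -0.01. The Wald value thus departs from the counts, and the cause of this gap was not tested.

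The other genes of the pathway were taken from 8 lists. Their counts in old against young microglia stand beside 10.7% of all genes called lower, 11% called higher and a median of -0.01, and those in cord beside 4.88% called higher and the same median. Among 11 tested genes of ligand latency and activation, 2 were lower in old microglia and 2 higher, with a median of 0.27. The alphaV integrin Itgav fell with age (log2 -0.35, SE 0.10, adjusted p = 0.011), as did its partner Itgb5 (-0.22, SE 0.06, adjusted p = 0.0035), and the matrix protein Thbs1, an activator of the latent ligand, rose 1.93-fold. From old to repopulated microglia Itgb5 rose 1.34-fold, at 4120 ± 145 against 3060 ± 226 CPM (SD), and was also the 1 gene of this list called in old cord, where it rose 1.40-fold. Of 10 tested receptors and co-receptors of the wider family, 3 fell with age in microglia and 1 rose. The co-receptor Eng was 1.63-fold lower, at 265 ± 20.3 CPM in old microglia (log2 -0.71, SE 0.09, adjusted p = 5.6e-07), and the type I receptor Acvrl1 from 67.0 ± 4.71 to 91.3 ± 8.97 CPM (log2 0.45, SE 0.08). None of the 11 was called in old cord.

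Of 9 other Smads and nuclear partners, 3 fell with age in microglia: Smad1 of the BMP branch (log2 -0.40, SE 0.11) and the acetyltransferases Ep300 (-0.39, SE 0.10) and Crebbp (-0.34, SE 0.12). None rose. Of 12 inhibitors, 2 rose and 3 fell, among them the Smad co-repressor Tgif1 (0.51, SE 0.09, adjusted p = 8.2e-05) and Pmepa1, which sequesters Smads and is induced by the signal (-0.34, SE 0.06, adjusted p = 8.8e-05). Pmepa1 fell further in repopulated against old microglia (-0.24, SE 0.06, adjusted p = 0.0056). Tgif1 also rose in old cord (0.54, SE 0.08) as the 1 of 12 inhibitors called there. Among 5 positive regulators the deubiquitinase Usp11 fell with age in microglia (-0.45, SE 0.11), and the adaptor Dab2 was lower in repopulated than in old microglia (-0.74, SE 0.17, adjusted p = 0.0025). In the list of BMP and activin ligands 7 genes were tested in microglia. The 1 that fell with age, Bmp1 (-1.04, SE 0.21), encodes a procollagen protease and not a ligand, and no ligand of the list was called.

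Lists of genes known to lie downstream of the signal went in opposite directions in sorted old microglia. Of 12 microglial genes known to depend on TGF-beta, 10 fell and none rose, with a median of -0.48, where 10.7% of all genes were called lower with a median of -0.01. The falls with the smallest adjusted p include those of the Fc receptor-like gene Fcrls (-0.78, SE 0.05), the lectin Siglech (-0.62, SE 0.06), Olfml3 (-0.42, SE 0.06) and the microglial transcription factor Sall1 (-0.59, SE 0.08). The list of 8 microglial markers, which shares several genes with these 12, moved alike: 6 fell and none rose, with a median of -0.5. Of 11 general TGF-beta target genes, 7 rose and none fell, with a median of 0.92, where 11% of all genes were called higher. They included the matrix protein Fn1, from 60.1 ± 28.9 to 337 ± 127 CPM, the helix-loop-helix inhibitor Id2 (log2 0.89, SE 0.14) and Tgfbi (0.91, SE 0.15). Fn1 is also one of the 7 monocyte markers whose sum was higher in old libraries. The part of other myeloid cells in the changes of both lists was not tested, and signalling itself was not measured. After repopulation, 9 of the 12 microglial genes were lower than in young microglia and 6 of the 11 general targets higher, where 16.5% of all genes were called lower and 16.1% higher. Against old microglia, Olfml3 rose (0.41, SE 0.06), Cx3cr1 fell (-0.42, SE 0.07), Mertk fell (-0.23, SE 0.08), and 9 were not called.

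In cord the same 12 microglial genes had 6 rises and no fall with age, with a median of 0.35, where 4.88% of all genes were called higher with a median of -0.01. In repopulated against young cord 8 rose, where 7.28% of all genes were called higher. Fcrls rose 2.21-fold in old cord, while Sall1 (log2 0.09, SE 0.10) and P2ry12 (0.10, SE 0.08) were not called. Several of these 12, Cx3cr1, P2ry12, Tmem119 and Siglech among them, are also in the microglial marker sum. Of 12 general targets, 2 rose with age in cord, Junb (0.36, SE 0.11) among them.

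As a description, the 3 genes most like each member over the 24 libraries of a tissue were listed by Pearson's r of log2 CPM, among 9334 genes in microglia and 12194 in cord with a mean of at least 5 CPM. The libraries fall into 3 groups, so differences between groups enter r. In microglia Smad3 was most like Sall1 (r = 0.95), Sirpa (0.944) and Ikzf1 (0.939), and Tgfbr1 was most like Abca9 (0.948), Itgav (0.935) and Sort1 (0.922). Tgfb1 was closest to Asb2, Selplg and Scamp2 (0.925 to 0.928), Nrros to Lrba, P2ry13 and Slc44a2 (0.908 to 0.918), and Ski to Pik3cg, Rptor and Smad3 (0.892 to 0.921). Tgfb3 was closest to Lmtk2 (0.823), Pde2a (0.797) and the border-associated macrophage marker Cbr2 (0.771), and Tgfbr2 to Avl9, Zfp275 and Dusp16 (0.765 to 0.843). Tgfb2 was closest to Elovl7, Cald1 and Kcnj13 (0.824 to 0.848), Smad2 to Lpin1, Engase and Klf3 (0.874 to 0.892), and Smad7 to Ccdc142, Col27a1 and Unkl (0.784 to 0.825). In cord Tgfb1 was most like Cyba (0.942), Hcls1 (0.941) and Unc93b1 (0.935), Nrros most like Gsdmd, Cebpa and Pald1 (0.913 to 0.924), and Tgfbr1 most like Thbs2 (0.947), with Met also among its 3 (0.922). Tgfbr2 was closest there to Itpripl2, Gldn and Sostdc1 (0.922 to 0.943), Tgfb2 to Pcsk6, Kctd12 and Ank (0.865 to 0.910), and Tgfb3 to Tubb6, Tmem106a and Rasa4 (0.856 to 0.863). Smad2 was closest to Man1a2, Phtf1 and Ncoa7 (0.956 to 0.964), Smad3 to Arnt, Plpp3 and Cxcl12 (0.920 to 0.927), Smad7 to Il17ra, Flt4 and Setd4 (0.828 to 0.845), and Ski to Ndst1, Kdm3b and Mob1a (0.964 to 0.969).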

How the data were processed

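Polyadenylated RNA of sorted brain microglia and whole spinal cord was sequenced in 48 libraries, 8 per group, with a kit that does not keep the strand, per the labels' protocols. STAR 2.5.2b and the build GRCm38.p5 appear, with no stated role, in the submitters' processing notes. Counting tool and annotation: not given in the sources used here. Whole-number counts per gene, used as the authors deposited them, came with TPM, which were checked to be counts over gene length brought to 1 sum per library (largest difference 0.0005). Gene positions are from GENCODE for GRCm38 and promoters from RefSeq. Groups come from the labels.

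Counts were tested in edgeR 4.0.16 (R 4.3.3) by its quasi-likelihood test after TMM scaling; filterByExpr (at least 10 counts, at least 15 in total) was the filter, over the 24 libraries of each tissue (14382 genes in microglia, 18271 in cord) or all 48 (19110 genes, for differences between tissues). P-values were adjusted by Benjamini-Hochberg over all genes tested, at 0.05. The steps were tested on simulated data. Total counts per library were between 18741936 and 34496308 in microglia and between 15909868 and 33004806 in cord. No 2 libraries were duplicates: over 168 pairs within groups, the chi-square per gene was at least 3.24. Floors cover counting error only.

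The members, gene lists and tests were chosen with earlier results of these data known. The text names all 10 members, up to 4 called genes per list and comparison with the smallest adjusted p, and the 3 genes most like each member, except some genes that are not reported here; the cord values of Sall1 and P2ry12 were added after they were seen. Alternatives were DESeq2 1.42.0 size factors and Wald test, total-count scaling, no filter, a stricter filter, limma 3.58.1 (voom with quality weights, and on log2(TPM + 1) and log2(TPM + 0.1)), a replicate block, fits of only the groups compared, and fits without each library.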

Additional observations from a re-analysis of the deposited data

Results flagged for a closer look

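Among 60 sets of 8 libraries (10 genes in 6 groups), 5 held a library far from the rest. The measure was Dixon's ratio of gap to range on log2 CPM (critical value 0.526), and chance flags about 1 set in 20. Of the 5 flagged sets, 3 concern repopulated cord replicate 6: it was highest for Tgfb1 (ratio 0.61, at 17.8 CPM) and lowest for Smad3 (0.57, at 15.5 CPM) and Ski (0.843, at 74.6 CPM). In TPM its Tgfb1 was not the highest, at 12.25 in a group from 10.9 to 14.9. On that scale it was the lowest of its group for every other member, with Smad3 at 4.38 and Ski at 20.2. The cause of this difference between the scales was not tested. This library also had the highest microglial, oligodendrocyte and astrocyte marker sums of its group. Old cord replicate 8 was lowest for Smad7 (0.669, at 16.7 CPM), and repopulated microglia replicate 7 was lowest for Tgfb2 (0.531, at 0 CPM). The next Tgfb2 values of that group were 0.403 and 0.433 CPM, so this flag depends on the log scale near 0.

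The age change differed between microglia and cord, by an interaction contrast in edgeR, for Tgfb1 (log2 -1.29), Tgfbr1 (-0.99), Nrros (-0.89), Smad3 (-0.81), Ski (-0.50), Tgfbr2 (-0.48) and Smad2 (-0.30), beside a median of -0.15 over all genes. The repopulation change differed for Tgfb3 (-2.61) and Nrros (-0.59), beside a median of -0.10; by the DESeq2 Wald test that of Tgfb3 was -0.19 (adjusted p = 0.97).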

How the results depend on the processing

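No called result changed sign under any alternative run. Of the counts of called members under these alternatives, 159 stayed within 1.5 times the reported count and 27 did not. For repopulated against old microglia (1 member), 2 were called with DESeq2 size factors, a stricter filter, the DESeq2 Wald test, voom and the replicate block, 6 with total counts, and 9 on log2(TPM + 1) and log2(TPM + 0.1). For old against young cord (4), 2 were called on both TPM scales. For repopulated against young cord (5), 3 were called with no filter and with only the groups compared, and 2 on both TPM scales. For the age change between tissues (7), 4 were called on both TPM scales, and for the repopulation change (2), 1 by the DESeq2 Wald test, which lost Tgfb3 (-0.19, adjusted p = 0.97). Leaving out 1 library gave 4 to 5 called members for old against young, 1 to 2 for repopulated against old and 6 to 7 for repopulated against young microglia, and 3 to 5, 0 and 3 to 7 for the same cord comparisons.

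Of 24 same-numbered pairs in each tissue, 3 in microglia and 8 in cord deviated together with r over 0.1. The r ran from -0.303 to 0.171 in microglia and from -0.712 to 0.557 in cord. In 2 pairs of each tissue the same-numbered library was the most alike of the other group. No chance level was computed, so whether replicate numbers pair the samples was not settled, and pairs across tissues were not examined. With the replicate block the counts were 5, 2 and 6 in microglia and 5, 0 and 4 in cord. Depth limits Tgfb3 in microglia, with 0 to 56 reads per library. Without old microglia replicates 2 and 7 and repopulated cord replicate 6, chosen after seeing the data, Smad2 lost its difference in age change (-0.15, adjusted p = 0.29).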
